A study of Homo sapiens with 4 samples.

Results

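The histone genes of the human cell line MDA-MB-231, established from a triple negative breast cancer, were examined for N6-methyladenosine (m6A), the most common internal base modification of mRNA. They were chosen by gene symbol. Protein-coding genes named as H1, H2AC, H2BC, H3C or H4C genes, as H2AJ, H2AX, H2AZ or H3 variants, or as MACROH2A genes gave 84 members described here, of the 19110 nuclear protein-coding genes that could be matched. In m6A-seq, fragmented poly(A) RNA is pulled down with an antibody against m6A (IP), and stretches richer in reads in the IP than in untreated input RNA are listed as peaks. The study had 2 input and 2 IP libraries, all of MDA-MB-231 cells labelled shNS, with no treated group. The treatment field of the IP libraries names YTHDC1, while their titles and protocol describe the antibody against m6A, which was the reading used. The 4 libraries had been combined into 1 list of 20261 peaks before deposit, so no value has a spread between replicates and no group was compared with another.

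Histones are the proteins around which DNA is wound. The core particle holds H2A, H2B, H3 and H4, and the linker histone H1 sits where DNA enters and leaves it. Their genes are of separate kinds. The clustered genes, which lie together on chromosomes 6 and 1, are transcribed mainly during DNA replication, usually lack introns, and yield mRNAs that as a rule end in a conserved stem-loop and carry no poly(A) tail. The variant genes, such as those for H2A.Z, H3.3 and macroH2A, are scattered. As a rule they are used throughout the cell cycle and yield ordinary polyadenylated mRNAs. Some clustered genes can also make polyadenylated transcripts. The kinds were assigned here by symbol, and the mRNA ends were not examined. The m6A mark is laid down on RNA by the METTL3 and METTL14 complex, mostly within the RRACH context (a purine pair, then AC, then any base but G).

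Of the 84 histone genes, 13 (15.5%) had at least 1 peak, with 19 peaks in all. Among all protein-coding genes the share was 42.8%. The clustered genes and the variants lay on opposite sides of that share. Of 70 clustered replication-dependent genes, 5 had a peak (7.14%, 95% Wilson interval 3.09 to 15.7%), namely H1-2, H2BC12, H2BC21, H4C8 and H4C16. Of 11 polyadenylated variant genes, 7 had a peak (63.6%, 35.4 to 84.8%, an interval that holds the share of all genes), namely H1-10, H2AX, H2AZ1, H2AZ2, MACROH2A1, MACROH2A2 and H3-3B. A further 3 members, H1-7, H3-4 and H3-7, were kept apart because the end of their mRNA was not assigned, and H3-7 alone among them had a peak. These intervals cover counting error only, and genes are not independent of each other. The libraries were made from poly(A) RNA and the list gives no expression level. A gene without a peak may therefore be unmethylated, unexpressed, missing from the captured RNA or missed in peak calling, among other reasons. These cannot be told apart.

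By family, the difference between the kinds was present in H1, H2A and H3, where both exist. Of the clustered H2A genes, 0 of 17 had a peak, against 5 of 6 H2A variants. Of the clustered H3 genes, 0 of 13 had a peak, against 1 of 3 H3 variants. Among H1 genes the counts were 1 of 6 clustered and 1 of 2 variants. The H2B and H4 members are all clustered, with a peak in 2 of 19 and 2 of 15. The Wilson intervals of the H1 and H3 kinds overlap, so only the H2A counts stand clear of each other.

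Peaks were also split unevenly by strand. In the list as a whole 72.3% of peaks were on the minus strand. A peak was listed for 57.6% of minus-strand against 30.4% of plus-strand protein-coding genes. The histone counts by strand are therefore set beside those shares. Backgrounds elsewhere hold both strands unless a strand is named. Strand was taken from the RefSeq promoter table, which held 77 of the 84 members. Of 44 minus-strand histone genes 12 had a peak (27.3%), and of 33 plus-strand histone genes 1 had (3.03%). None of the 7 members without an entry had a peak. Among clustered genes, all 5 with a peak were on the minus strand (5 of 36, or 13.9%), and 0 of 28 on the plus strand had one, which allows a share of up to 12.1% by the Wilson interval. All 6 minus-strand variants had a peak, against 1 of 4 on the plus strand. The clustered genes were split 36 to 28 between strands (56.3% minus). On each strand the clustered share was below the background and its interval did not reach it.

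**Figure D1:**
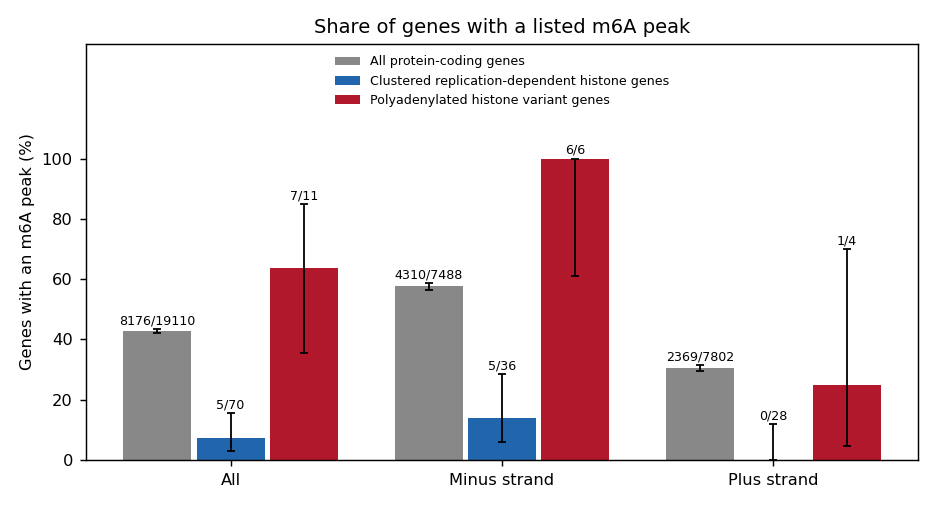
Percentage of genes with at least 1 listed m6A peak (y axis) among all protein-coding genes, clustered histone genes and variant histone genes, over all genes and by strand (x axis). Bars are shares, error bars are 95% Wilson intervals and labels give genes with a peak over genes counted. The 7 histone genes without a strand entry are in the left group only. Clustered genes lie below all protein-coding genes in each group (7.14% against 42.8% overall), and all 6 minus-strand variants have a peak.

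The start of several of these genes lay under a peak. The sequences are from RefSeq (GRCh38.p14, read along the gene) and run from 50 bases before the start used in the promoter table to 30 bases after it. They are shown because each has bases at or near the start under a listed peak, which capitals mark. The positions are chr4:99950246-99950325 for H2AZ1, chr3:129316257-129316336 for H1-10, chr7:44848058-44848137 for H2AZ2 and chr5:135399202-135399281 for MACROH2A1, all on the minus strand. MACROH2A2 is at chr10:70052796-70052875 on the plus strand. H3-3B (chr17:75779750-75779829), H4C8 (chr6:26285505-26285584) and H4C16 (chr12:14771102-14771181) are on the minus strand.
H1-10: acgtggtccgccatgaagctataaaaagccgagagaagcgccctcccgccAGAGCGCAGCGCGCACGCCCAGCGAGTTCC
H2AZ1: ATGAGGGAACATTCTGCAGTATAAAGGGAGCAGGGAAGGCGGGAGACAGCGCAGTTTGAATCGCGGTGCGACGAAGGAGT
H2AZ2: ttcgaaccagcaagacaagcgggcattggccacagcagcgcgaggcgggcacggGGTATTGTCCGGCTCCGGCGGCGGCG
MACROH2A1: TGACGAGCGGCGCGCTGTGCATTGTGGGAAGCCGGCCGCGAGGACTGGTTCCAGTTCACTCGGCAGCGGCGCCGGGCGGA
MACROH2A2: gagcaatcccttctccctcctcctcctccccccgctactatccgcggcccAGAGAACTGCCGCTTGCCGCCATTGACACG
H3-3B: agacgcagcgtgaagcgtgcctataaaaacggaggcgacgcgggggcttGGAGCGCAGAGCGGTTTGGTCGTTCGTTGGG
H4C8: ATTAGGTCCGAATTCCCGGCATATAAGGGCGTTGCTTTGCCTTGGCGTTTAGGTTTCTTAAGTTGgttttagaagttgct
H4C16: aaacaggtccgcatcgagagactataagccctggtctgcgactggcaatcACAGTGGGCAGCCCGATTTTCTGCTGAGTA

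In H1-10, MACROH2A2 and H4C16 the peak began exactly at the annotated first base. In H3-3B the block at the start began 1 base before it, and the same peak has a further block far upstream. In H2AZ1 and H4C8 it ran upstream of the start, by 80 and 74 bases, and in H2AZ1 it took in the TATAAA word of the promoter. Peaks were placed on the transcript models of another annotation (GENCODE v33), and whether these models start upstream of the RefSeq start was not tested. In MACROH2A1 and H2AZ2 the start of the promoter table lies inside the gene span. Their distances from the 5′ end of the span therefore differ from those in the sequences shown. For MACROH2A1 all 80 bases shown are under the peak. An RRACH word lay fully under a peak within the 300-base windows of the promoter table in H2AZ1 (GAACA and AGACA, 44 and 7 bases before the start), MACROH2A1 (GGACT, 9 bases before) and MACROH2A2 (GAACT and GAACC, from positions 4 and 39, counted from 1 at the start). Of 6 members whose first 50 transcribed bases were all under a peak, 1 (MACROH2A2) held an RRACH word in those bases on the transcribed strand, against 36.3% of 15290 protein-coding genes. With only 6 members, no difference from that share can be read from this count. These windows cover only the start of each peak, and the rest of the peak sequence was not analysed here.

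Among the variant linker histones, H1-10, the variant H1.X, had 2 peaks on chromosome 3 (minus strand, ENSG00000184897). One had 357 bases (129315930 to 129316286, score 1e-109) and the other 476 bases (129315187 to 129315662, listed at 0). A score of 0 was taken as a value too small to be stored, and 466 of the 20261 peaks (2.30%) had it. Of the peak listed at 0, 247 bases were also under a plus-strand peak of the antisense gene H1-10-AS1 (score 6.3e-51). The peak at the gene start had no such partner. H1-8, the oocyte linker histone, had no peak.

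The longest histone peak was on an H2A variant. H2AX, whose protein is phosphorylated at DNA breaks, was listed at 0 on chromosome 11 (minus strand, ENSG00000188486). The list gave its region once as blocks of 602 and 383 bases (119093879 to 119095061) and again as 1 block of 1196 bases (119093854 to 119095049), among 745 peaks appended after the chromosome order restarts. The entries overlapped, and merged they had 1208 bases, of which 20 lay past the 3′ end of a gene span of 1592. This was the largest merged stretch on the 13 genes. It left the first 404 bases free, and H2AX and MACROH2A1 were the variants with a peak that had none in their first 200 bases.

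H2AZ1, one of a pair of genes for H2A.Z, the variant found beside active promoters, had 1 peak of 210 bases on chromosome 4 (99950146 to 99950355, minus strand, ENSG00000164032) with a score of 1.3e-53. It shared 44 bases with a much weaker peak of 180 bases on the divergent transcript H2AZ1-DT (score 1.3e-09). H2AZ2, the other gene for H2A.Z, had 1 peak on chromosome 7 (minus strand, ENSG00000105968) with a score of 1.5e-06. It consisted of a block of 115 bases, 43 to 157 bases from the 5′ end, and a block of 5 bases across the intron (44843350 to 44848083). Both genes for H2A.Z therefore had a listed peak at or near the start, with far apart scores. By rank, 38.8% of minus-strand protein-coding genes with a peak scored as small as H2AZ1 or smaller, and 82.9% as small as H2AZ2 or smaller.

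MACROH2A1 and MACROH2A2, which encode H2A variants with a large macro domain, had 1 peak each. That of MACROH2A1 on chromosome 5 (minus strand, ENSG00000113648) had 421 bases in blocks of 247 and 174 bases (135389123 to 135399308) and a score of 7.9e-29. That of MACROH2A2 on chromosome 10 (plus strand, ENSG00000099284) had 150 bases from the first base of the gene (70052846 to 70052995) and a score of 1.9e-05. Within their own strands these scores ranked closer than the values alone would show, with 52.1% of minus-strand and 61.6% of plus-strand genes at or under them. H2AJ, a variant on the plus strand, had no peak.

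H3-3A and H3-3B encode the same protein, H3.3, the replacement H3 of active genes. H3-3B on chromosome 17 (minus strand, ENSG00000132475) had 2 peaks and H3-3A on chromosome 1 (plus strand) had none. The stronger H3-3B peak (75779653 to 75785426, score 2e-07) had a block of 128 bases at the RefSeq start and a block of 51 bases far upstream of it (75785376 to 75785426). The other, of 180 bases (75784815 to 75784994, score 0.0028), also lay upstream, was among the appended peaks, and overlapped a plus-strand peak of UNK (score 0.0019) by 149 bases. Of the H3-3B peak bases, only those of the first block were inside the RefSeq gene. H3-5, a further H3.3-like gene, had no peak.

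**Figure D2:**
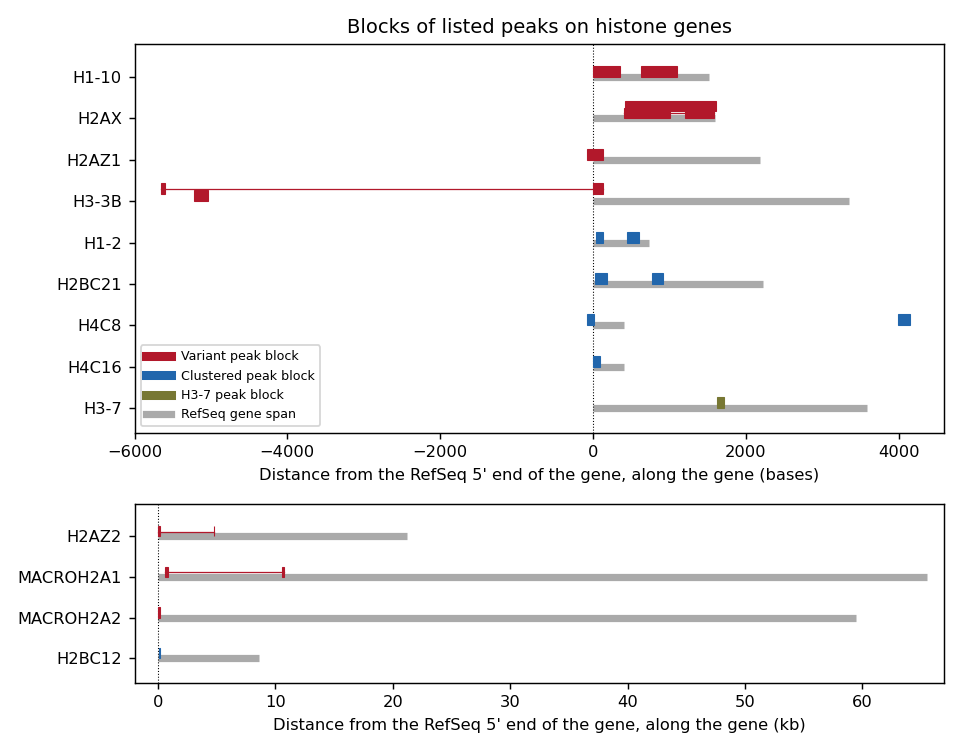
Blocks of every listed peak (coloured) on the RefSeq span (grey bars) of the 13 histone genes with a peak, by distance from the RefSeq 5′ end along the gene, in bases for the shorter spans and H3-7 (upper panel) and in kb for the longer spans (lower panel). Thin lines join blocks of 1 peak, blocks have a thin outline so that the block of 5 bases in H2AZ2 stays visible, and the entries of H2AX and of H3-3B are offset in height. Most genes carry a block at or within 200 bases of the start, H2AX is covered from 404 bases onwards, and H3-3B and H4C8 have blocks well outside the span.

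The clustered genes had short and weak peaks. Their 8 peaks were each of 1 block, with 88 to 149 bases, and had a median score of 1.14e-06. The 10 variant peaks had 120 to 1196 bases and a median score of 3.95e-29, with 3 listed at 0, against none of the clustered peaks. The H2AX entries, both listed at 0, cover the same region and are counted separately here. H3-3B and H4C8 each have a peak wholly outside the RefSeq gene. By gene, the median of the strongest scores was 7.9e-29 for the 7 variants and 2.3e-07 for the 5 clustered genes with a peak. Over all protein-coding peaks the median length was 211 bases and the median score 1.1e-08. Of all protein-coding peaks 7.55% shared a base with a peak on the opposite strand. The counts were 0 of 8 clustered peaks, near that background at this number, and 3 of 10 variant peaks.

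H1-2, a linker histone gene of the chromosome 6 cluster (ENSG00000187837), had 2 peaks, of 88 bases (26056341 to 26056428, score 1.7e-06) and of 147 bases (26055874 to 26056020, score 6.6e-05). They lay 42 to 129 and 450 to 596 bases from the start of a span of 731 bases. The latter ended 134 bases before the 3′ end. H1-2 was the only clustered gene with peak bases in the last 200 bases of its span.

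Both H2B genes with a peak have RefSeq spans that are long for a clustered histone gene. The H2B genes H2BC18, H2BC5 and H2BC4, with still longer spans (29682, 13229 and 10757 bases), had no peak. H2BC21 on chromosome 1 (ENSG00000184678), with a span of 2224 bases, had 2 peaks of 149 bases each (149886504 to 149886652, score 2.3e-07, and 149885763 to 149885911, score 5.8e-07). The former began 30 bases from the start and the latter 771 bases from it, beyond the length of the median clustered gene (494 bases). H2BC12 on chromosome 6 (ENSG00000197903), with a span of 8566 bases, had 1 peak of 89 bases, 60 to 148 bases from the start (27146710 to 27146798, score 0.00019). The H2A gene that faces H2BC21 across a gap of 235 bases, H2AC20 on the plus strand, had no peak.

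H4C8 and H4C16 encode H4 from separate places. H4C8 on chromosome 6 (ENSG00000158406) had the strongest clustered peak, of 89 bases (26285520 to 26285608, score 4.1e-09). Only 15 of its bases were inside the RefSeq span and 74 were upstream. Its second peak, of 149 bases (26281392 to 26281540, score 0.00019), lay 3994 to 4142 bases from the start, far beyond the 3′ end of a gene of 409 bases. Hence most of what the list assigned to H4C8 was outside the RefSeq gene. H4C16 on chromosome 12 (ENSG00000197837), which lies 3273 bases from H2AJ and away from the clusters, had 1 peak of 91 bases at its first base (14771041 to 14771131, score 1.3e-07).

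The H3-7 peak was the weakest of the histone peaks. H3-7, an H3-like gene on chromosome 1 (ENSG00000273213), had 91 bases listed at 143904267 to 143904357 with a score of 0.004, and 98.2% of all listed peaks had a smaller or equal score. Histone copies of a family are similar in sequence, and the authors' alignment allowed a read several placements. Whether reads with several placements entered the peak calling was not examined. Which copy a clustered or H3-7 peak belongs to may therefore be uncertain, and how this bears on copies without a peak was not tested. In the spans of H4C15 and H3C4, which had no peak of their own, the list held same-strand peaks under other gene IDs. These were 2 peaks of the pseudogene H2BC20P (61 and 90 bases, scores 0.0019 and 0.003) inside H4C15 and 1 peak of ENSG00000282988 (90 bases, score 0.0013) inside H3C4. Counting any same-strand peak in the span raised the clustered count from 5 to 7.

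**Figure D3:**
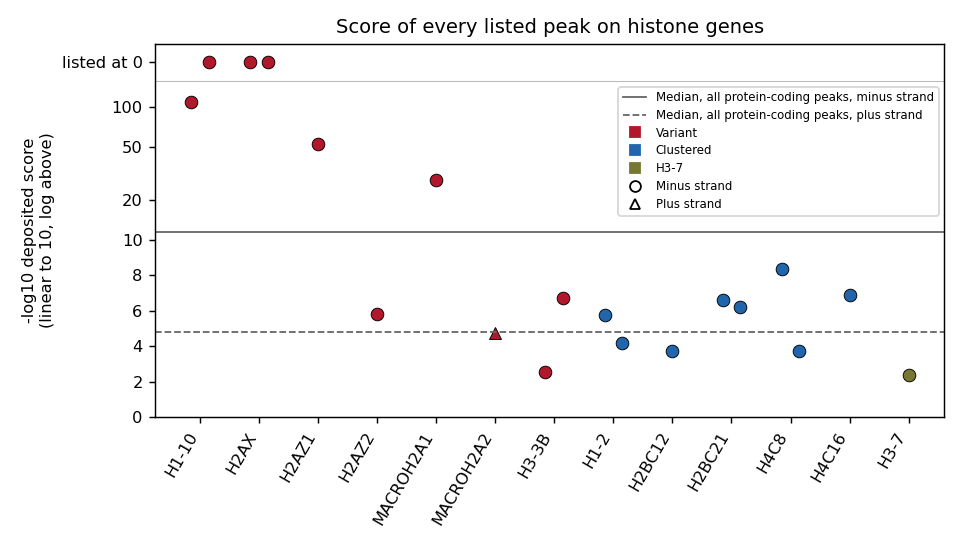
Score of each of the 19 histone peaks as −log10 of the deposited value (y axis, linear to 10 and logarithmic above, with values listed at 0 drawn at the top) by gene (x axis). Circles are minus-strand and triangles plus-strand peaks, colours give the kind of gene, and the lines mark the median over all protein-coding peaks of each strand. All 8 clustered peaks fall below the minus-strand median, and the peaks of H1-10, H2AX, H2AZ1 and MACROH2A1 lie above it.

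By score, the histone genes with a peak lay on both sides of the list median. The list median score was 5.2e-08. In 5 of the 13 genes (38.5%) the strongest peak was at or under it, against 65.2% of all protein-coding genes with a peak. These were H1-10, H2AX, H2AZ1, MACROH2A1 and H4C8. H4C8, at 4.1e-09, lay far nearer the median than the others, which had 7.9e-29 or smaller. On the minus strand alone the shares were 41.7% of 12 histone genes and 78.8% of all protein-coding genes with a peak. The score reflects read depth as well as enrichment, and neither is given by the list. On the minus strand, where the median over all protein-coding peaks was 4e-12, none of the 8 clustered peaks reached that median. The rank of the strongest clustered peak, that of H4C8, was 75.4% among minus-strand genes with a peak, and the other 4 ranked from 79.2% to 92.6%, where a higher percentage is weaker. Genes had 1 or 2 peaks each, on average 1.46 ± 0.519 (mean ± SD over 13 genes), against 2.10 ± 1.5 over the 8176 protein-coding genes with a peak. On the minus strand alone the means were 1.5 ± 0.522 and 2.33 ± 1.66.

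Peaks of histone genes lay at the 5′ end more often than at the 3′ end. A peak held bases in the first 200 bases of the RefSeq span in 5 of 5 clustered and 5 of 7 variant genes with a peak, against 22.3% of the other 8163 protein-coding genes with a peak. In the last 200 bases the counts were 1 of 5 (H1-2), 1 of 7 (H2AX) and 13.5%. A window of 200 bases takes up much of a clustered gene, whose median span was 494 bases, so that the clustered count is not comparable with that of long genes. For the variants with spans over 20 kb, H2AZ2 and MACROH2A2 had bases in that window and MACROH2A1 did not, its nearest block beginning 579 bases from the 5′ end of the span. The promoter-table start of MACROH2A1 lies under that block, so the variant count depends on the start used. The H3-3B peak counted in the first 200 bases also has a block far upstream of the RefSeq start.

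Gene length moved with the share of genes that had a peak. Among all protein-coding genes with a span of up to 1 kb, 20 of 429 had a peak (4.66%), and the share was 32.4% for spans over 1 to 5 kb, 41.4% for over 5 to 20 kb and 47.3% for over 20 kb. Of the 62 clustered histone genes with a span of up to 1 kb, 3 had a peak (4.84%, 95% Wilson interval 1.66 to 13.3%), which is close to the share for that length. These 62 are themselves among the 429. The 8 clustered genes with longer spans had a peak in 2 cases (25.0%, 7.15 to 59.1%). The variants with spans over 1 to 5 kb had a peak in 4 of 6 cases (66.7%), with a Wilson interval that ends at 90.3% and still holds the 32.4% of that length, while both variants of 5 to 20 kb (H1-8 and H3-3A) had none. All 3 variants over 20 kb had a peak (100%, 43.9 to 100%), and that interval holds the 47.3% of that length. The part that length plays in the difference between the kinds was not tested.

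**Figure D4:**
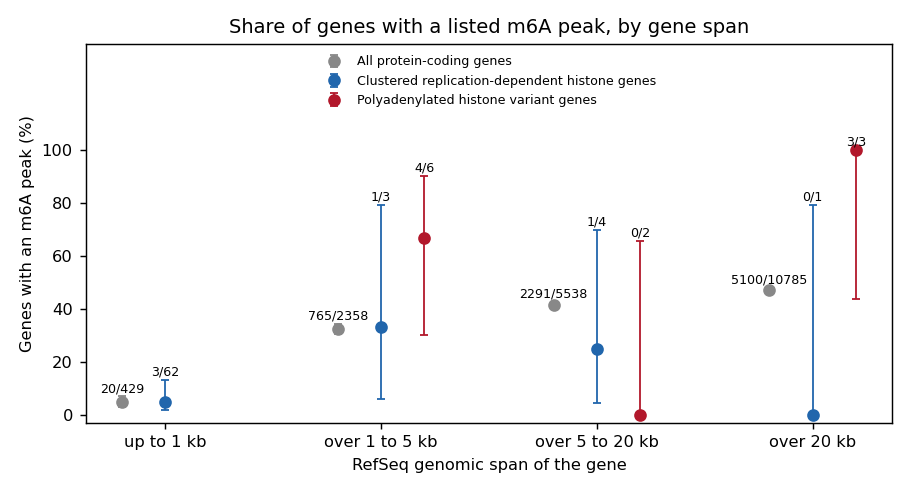
Percentage of genes with a listed m6A peak (y axis) by RefSeq genomic span (x axis) for all protein-coding genes, clustered histone genes and variant histone genes. Points are shares, bars are 95% Wilson intervals and labels give genes with a peak over genes counted. Up to 1 kb the clustered genes (4.84%) and all protein-coding genes (4.66%) sit together, and the variants over 1 to 5 kb (66.7%) sit above all genes of that span (32.4%), with an interval that reaches it.

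The same neighbourhood gave another point of reference. On chromosome 6 the clustered genes spread from 25726063 to 27893891, and 3 of 55 had a peak (5.45%). Of the 18 other protein-coding genes lying between them, 9 had one, with a median span of 13043 bases. On chromosome 1 the count was 1 of 13 clustered genes. Genes for cytosolic ribosomal proteins, which also have short and abundant mRNAs but with poly(A) tails, had a peak in 23 of 86 cases (26.7%, 95% Wilson interval 18.5 to 36.9%), with 33 peaks and a median strongest score of 1.7e-06. Over both strands, their share was above that of the clustered histone genes and below that of the histone variants. Its interval is clear of that of the clustered genes but overlaps that of the variants. On the minus strand the share was 35.7% (20.7 to 54.2%), an interval that overlaps the clustered one (13.9%, 6.08 to 28.7%). On the plus strand it was 22.5% (12.3 to 37.5%), and the clustered interval (0%, up to 12.1%) ended just below that. The ribosomal protein genes had a median span of 5046 bases.

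The promoters of clustered genes held known promoter words more often than those of all genes. In the 250 bases before the start, the word TATAAA on the transcribed strand was found in 37 of 64 clustered genes (57.8%) and 4 of 10 variants, against 6.69% of 15290 protein-coding promoters. CCAAT, searched on both strands, was found in 84.4% of the clustered genes and 7 of the 10 variants, against 34.7% of all. The octamer ATTTGCAT, searched on both strands and known from H2B promoters, was found in 26 of 64 clustered genes (40.6%), 14 of them among the 18 clustered H2B genes (77.8%), and in 1 of 10 variants, against 1.65% of all. Words that overlapped were counted for each. Of the clustered genes with a peak, 3 of 5 held TATAAA, 3 of 5 CCAAT and 2 of 5 the octamer, the last being H2BC12 and H2BC21. Among variants TATAAA was in 4 of the 7 with a peak (H1-10, H2AX, H2AZ1 and H3-3B) and in none of H1-8, H2AJ and H3-3A, which had no peak. CCAAT was in 4 of these 7 and in all of those without a peak. These are few genes, and no difference by peak was tested.

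Genes for proteins that handle histone mRNA and histones were read against the same 42.8% of all protein-coding genes. Of 27 genes for histone mRNA transcription, 3′ end formation and decay, 16 had a peak (59.3%, 95% Wilson interval 40.7 to 75.5%, which holds that share), 11 on the minus strand and 5 on the plus strand, and in 13 of them the strongest score was at or under the list median. The strongest were CSTF2T (1 peak of 1801 bases), a polyadenylation factor gene, LSM10, which encodes a protein of the U7 particle that cuts histone mRNA, and WDR33, a subunit of the complex that reads the polyadenylation signal, all listed at 0. They were followed by TUT4, a uridylyltransferase (1e-150), and GON4L (1e-148). SLBP, which binds the histone stem-loop, had 2 peaks with a smallest score of 1e-43. SLBP was named for this role with its values known. LSM11, CASP8AP2, ZNF473, ERI1, CPSF1, CPSF2, CPSF3, CSTF2, CCNE1, CDK2 and NCBP1 had no peak.

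Of 31 genes for histone chaperones and variant deposition, 27 had a peak (87.1%, 71.1 to 94.9%, above that share), 16 on the minus strand and 11 on the plus strand, with 73 peaks. This list was chosen with earlier results of these data known, and the background holds genes regardless of their expression. No conclusion is drawn from the difference. ANP32E, which removes H2A.Z, CHAF1A, the large subunit of the replication-linked assembly factor, and DEK were listed at 0. HJURP, the chaperone of the centromeric H3 variant, had a score of 1e-268 and SSRP1, a subunit of the FACT complex, of 1e-205. CENPA, CHAF1B, HAT1 and IPO4 had no peak. Of these 4, IPO4 alone is on the minus strand. The median spans of the lists were 39928 and 34853 bases, against 25618 over all protein-coding genes.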

How the data were processed

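Libraries were 2 input and 2 anti-m6A IP samples from MDA-MB-231 poly(A) RNA, grouped by title. The authors mapped reads with STAR to GENCODE v33 (hg38), found peaks with exomePeak at default settings and filtered them on fold enrichment and FDR. The deposited file holds 1 score per peak for all libraries together, read here as the p-value of the peak caller, although an FDR is possible. Read depth is unknown.

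Peaks were assigned by the listed Ensembl ID (10103 of 10140 IDs matched a symbol), and biotype, span and promoter came from RefSeq GRCh38.p14 (19110 of 20056 protein-coding genes matched). Coordinates are 1-based. Overlap meant at least 1 shared base. Positions are distances from the RefSeq 5′ end, with 0 as the first base. No test was run, since values have no replicates. Python 3.11.15, pandas 2.3.3 and scipy 1.17.1 were used, and the overlap code was tested on simulated data. The symbol rule matched 85 genes, of which 1 is not reported here and is in no histone count. Every other member with a peak was named, and of each list of related genes the 5 with the smallest scores. Members, kinds and lists were chosen with earlier results of these data known. Alternatives were stricter scores, merging, and other rules for overlap and assignment.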

Additional observations from a re-analysis of the deposited data

How the results depend on the processing

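The counts depended most on the score. With peaks at or under the list median, 5 histone genes kept a peak (1 clustered, 4 variants) with 7 peaks, and with a score of at most 1e-10 there were 4 (0 clustered, 4 variants) with 6 peaks. The share with a peak at or under the median was 11.4% on the minus strand and 0% on the plus strand. Among clustered genes alone, with all scores, the shares were 13.9% and 0%. Fewer peaks or genes enter these settings by construction. The other settings (merging, leaving out overlaps with opposite-strand peaks, with other gene IDs or the second part of the list, and assignment by RefSeq span) kept each count within 1.5 times. Dropping peaks that overlapped one on the other strand cost H2AZ1 alone. No paired analysis was possible because each peak has a single score that pools the 4 libraries, so replicates could be neither blocked nor left out. Unknown depth limits what a missing peak shows.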
